A study of Homo sapiens with 6 samples.

Results

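Adenylyl cyclases, protein kinase A (PKA), the PDE4 phosphodiesterases and the transcription factor CREB1 with its CRTC coactivators form the cAMP pathway, here represented by 25 genes of a genome-wide CRISPR interference (CRISPRi) screen for the amount of an opioid receptor. Members were the single guide RNAs (sgRNAs) listed under the name of one of these genes. They took up 280 of 209070 sgRNA rows, of which 139 were analysed, against 101317 analysed sgRNAs that targeted any gene. All 25 genes were measured, of 18905 in the screen, and each had 5 analysed sgRNAs at the transcription start site that stood for it. The screen was divided into 3 sublibraries, and 14 of these genes (75 sgRNAs) lay in the one called H23, 11 genes (64 sgRNAs) in H17 and 0 genes in H456.

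Adenylyl cyclases make cAMP from ATP. The membrane-bound ones are activated by the stimulatory G protein, and several are inhibited by the Gi proteins to which opioid receptors couple, so that an opioid agonist lowers cAMP. cAMP releases the catalytic subunits of PKA from its regulatory subunits, PDE4 enzymes destroy cAMP, and PKA phosphorylates CREB1, which binds the cAMP response element in promoters together with the CRTC proteins.

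The cells were HEK293 FLP In, a human embryonic kidney line with a recombination site, in which the ubiquitin C promoter (pUBC) drove the fusion that the labels call SSF-DORmct-APEX2. This is the delta opioid receptor with a C-terminal recycling sequence of the mu opioid receptor and the peroxidase APEX2. The cells also carried dCas9-KRAB-BFP, a repressor that an sgRNA guides to the promoter of its target gene, and were expanded as clonal populations. By their labels, all 6 libraries shared 8 days of growth after transduction at a multiplicity of about 0.2. They shared 3 days of selection with puromycin at 0.75 μg/ml, and 90 min of 10 μM of the opioid peptide DADLE. They also shared the reaction of APEX2 with 100 μM Amplex UltraRed (AUR), whose fluorescent product reports the receptor that has not reached the lumen of lysosomes. The study's methods instead put the assay 6 days after transduction and describe a longer agonist treatment for intact cells. For each sublibrary there was 1 library from the top fluorescence quartile and 1 from the bottom quartile, without replicates, and no library without agonist was analysed here.

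Phenotypes are log2 ratios of an sgRNA's reads in the top over those in the bottom quartile, centred within each sublibrary on the median ratio of sgRNAs without a target (nontargeting controls, NTC). A positive phenotype is enrichment among bright cells, and a negative phenotype is enrichment among dim cells. This direction follows the sample titles, whose quartiles the names of the deposited files share. The library names in the sample descriptions carry the opposite letter, and no control gene was used here to settle it. Were those names right, every sign given here would turn (13 positive and 12 negative genes, CRTC2 the highest and PDE4A the lowest), while the p-values would stay. The top and bottom libraries held 47989659 and 40946430 reads in H23, and 23426498 and 28996259 reads in H17. The SD of the NTC sgRNAs was 0.28 in H23 (570 sgRNAs) and 0.47 in H17 (553 sgRNAs), and their 1st to 99th percentiles ran from −0.74 to 0.68 in H23 and from −2.23 to 0.74 in H17. Read numbers alone gave a median SD of 0.0606 for the members' sgRNAs in H23 and 0.0830 in H17. These counting errors do not cover PCR, which copies a molecule into several reads. Gene values are means with the SD over sgRNAs. Each gene's sgRNAs were set against the NTC sgRNAs by a two-sided exact Mann-Whitney test, adjusted by Benjamini-Hochberg over all 18905 genes. Since the units are sgRNAs, a p-value concerns the top and bottom library of a single sort and not repeated sorts.

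Promoter sequences were searched for the element that CREB1 binds. Of the 25 genes, 20 matched 56 windows of 300 bases around RefSeq transcript starts (GRCh38.p14). The cAMP response element TGACGTCA, which reads the same on both strands, was in 3 of the 56 windows, or 5.36%, against 1.85% of all 35116 windows. By gene, the element was in 2 of the 20 members with windows, beside 614 of all 27305 genes. The 2 windows of PRKAR1A overlap and hold the same element, so that shares of windows are not shares of genes. Its shorter form (TGACG on either strand), which the full element contains, was in 30.4% of the members' windows and in 24.6% of all windows. The element is shown in capitals within 30 bases of each promoter, since it is the sequence that CREB1, one of the genes, binds. The 30 bases of PRKAR1A lie at chr17:68512370-68512399 and those of PDE4A at chr19:10416759-10416788, both on the plus strand. A match is a description of the letters and not a measured binding site.
PRKAR1A: gcgaggcgcatTGACGTCAgtagccgaacg
PDE4A: cgtcagtccgcTGACGTCAcgccccaggag

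No gene of the group passed the screen's test. Of the 25 genes, 0 had an adjusted exact p below 0.05, while 0.476% of all genes did (0.381% with a negative and 0.0952% with a positive phenotype). The hit rule of the study's methods, with a score chosen here, also took 0 of the 25 and 0.905% of all genes. It was set within each sublibrary and took 100 of 6044 genes in H23 but only 5 of 5915 in H17. Its calls are not the study's own list of hits. At an unadjusted exact p below 0.05 there was 1 of 25, CRTC2, which was negative, beside 8.12% of all genes (4.05% on the negative side and 4.07% on the positive side). The sides were uneven in H17, which holds CRTC2, with 132 negative and 318 positive of 5915 genes past this limit. The phenotype was negative in 13 genes and positive in 12 (49.6% of all genes were negative), although only 19 of the 25 signs were the same when phenotypes were centred on all analysed sgRNAs, and the median was −0.0014, beside 0.0013 over all genes. The means ran from −0.36 for CRTC2 to 0.19 for PDE4A, and 2 of 25 genes (8%) lay more than 0.2 from zero in either direction, beside 17.6% of all genes. Among the genes that did pass, the smallest absolute phenotype was 0.41 in H23 (49 genes) and 0.48 in H17 (14 genes). Passing itself selects for large phenotypes. A large mean alone was not enough, as AADACL2 of H17 averaged −1.29 with an adjusted exact p of 0.529.

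The test that was missed does not show that a gene had no effect, and the intervals give what the sgRNAs allow. The 95% interval for the shift of a gene's sgRNAs against the NTC sgRNAs, from inverting the exact Mann-Whitney test, held zero in 24 of 25 genes, CRTC2 being the exception. It lay wholly between −0.5 and 0.5 in 23 genes. The lowest bound of all was −0.62, for CRTC2, and the highest was 0.48, for CRTC1. In 24 of 25 genes the 5 sgRNAs had both signs. The exception, PDE4A, is 4% of the members, beside 9.81% of all genes with sgRNAs of one sign. The median SD over the sgRNAs of a gene was 0.31 for the members in either sublibrary, beside 0.23 for all genes of H23 and 0.26 for those of H17. Single sgRNAs rarely left the range of the controls. In H23, 1 of 75 lay below the 1st percentile of the NTC sgRNAs (1.4% of all sgRNAs of H23 did) and 1 lay above the 99th (0.983% of all). In H17 none of the 64 left the range on either side (0.345% and 1.36% of all). Knockdown of the targeted genes was not measured in these libraries.

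All 10 adenylyl cyclases lay in H23, and none of them was set apart from the controls. Their phenotypes ran from −0.21 to 0.11 with a median of −0.0051, and each gene had at least 2 sgRNAs of either sign. There were 7 negative and 3 positive means with centring on the NTC sgRNAs, but 4 negative and 6 positive with centring on all analysed sgRNAs. The adjusted exact p ran from 0.79 to 0.982. ADCY3, the cyclase known from olfactory neurons (chromosome 2), was the most negative at −0.21 ± 0.32 (SD over 5 sgRNAs, exact p = 0.175, shift −0.19 with an interval of −0.48 to 0.08). Its sgRNAs, in the order of their positions, had 1343, 1662, 515, 3090 and 1533 reads in the top quartile, against 1314, 1757, 695, 2442 and 1216 reads in the bottom quartile. The phenotypes were −0.22, −0.33, −0.68, 0.09 and 0.09, so that the negative mean came from the first 3, which lie within 129 bases of each other, while the last 2, 324 and 329 bases from the first, were slightly positive. Without the strongest sgRNA the mean of ADCY3 was −0.09.

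ADCY4, a cyclase of the family that calcium does not regulate (chromosome 14), was next at −0.16 ± 0.22 (SD over 5 sgRNAs, exact p = 0.173, interval of the shift −0.37 to 0.07). Its sgRNAs had 1456, 1110, 2340, 556 and 1748 reads in the top quartile, against 1224, 1091, 1845, 643 and 1690 reads in the bottom quartile. The lowest phenotype, −0.46, belonged to the sgRNA with the fewest reads, and the other 4 lay between −0.22 and 0.10. ADCY9, a widely expressed cyclase that is insensitive to forskolin (chromosome 16), had the highest mean of the family at 0.11 ± 0.33 (SD over 5 sgRNAs, exact p = 0.342, interval −0.16 to 0.39). Its sgRNAs had 1424, 1461, 611, 1506 and 427 reads in the top quartile, against 1207, 1066, 356, 1109 and 465 in the bottom quartile. The 2 with the fewest reads were at opposite ends, at 0.53 and −0.37.

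ADCY6, one of the calcium-inhibited cyclases on which Gi acts directly (chromosome 12), averaged 0.0078 ± 0.37 (SD over 5 sgRNAs, exact p = 0.812, interval −0.32 to 0.35). Its sgRNAs had 187, 1725, 776, 1030 and 2483 reads in the top quartile, against 196, 1682, 469, 1031 and 1662 reads in the bottom quartile. The mean near zero therefore joined 3 sgRNAs between −0.31 and −0.21 with 2 at 0.48 and 0.33. ADCY5, its close paralog and the main cyclase of striatal neurons, averaged −0.08 ± 0.17, with sgRNAs between −0.33 and 0.13. The calcium-stimulated cyclases ADCY1 and ADCY8, known from neurons, averaged 0.06 ± 0.36 and −0.07 ± 0.39.

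ADCY2, activated by G protein βγ subunits and so by another arm of Gi signaling, had the widest spread of the family, with a mean of −0.0066 ± 0.49 (SD over 5 sgRNAs) and an interval of −0.36 to 0.29. One of its sgRNAs, with 1003 reads in the top and 489 in the bottom quartile, had a phenotype of 0.79 and was the sgRNA of H23 above the 99th percentile of the NTC sgRNAs. The others lay between −0.53 and 0.03, and without the strongest the mean was −0.21. ADCY7, of the same βγ-responsive class, averaged −0.0035 ± 0.21. ADCY10, the soluble cyclase that bicarbonate activates and G proteins do not, averaged −0.0014 ± 0.30. The interval for the shift of ADCY10 was −0.24 to 0.26.

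The 7 PKA genes lay in H17, where the lowest unadjusted exact p among them was 0.39, for PRKAR1B. Of the 3 catalytic subunits, 2 had means near zero and PRKACG a lower one, and 2 of the 3 means were negative, or all 3 with centring on all analysed sgRNAs. PRKACA, the main catalytic subunit of most cells (chromosome 19), averaged −0.0049 ± 0.31 (SD over 5 sgRNAs, adjusted exact p = 0.994, interval −0.29 to 0.33). Its sgRNAs had 145, 708, 412, 840 and 791 reads in the top quartile, against 227, 947, 425, 805 and 1149 reads in the bottom quartile, and phenotypes of −0.33, −0.11, 0.27, 0.37 and −0.23. Positive and negative sgRNAs were thus of like size. PRKACB, the second catalytic gene (chromosome 1), averaged 0.0025 ± 0.21 with sgRNAs between −0.30 and 0.20. The library addressed 1 start site of PRKACB, listed under the transcript ENST00000370685.3, whereas RefSeq gave 5 start windows. PRKACG, an intronless gene known mainly from testis, averaged −0.13 ± 0.47 with sgRNAs between −0.88 and 0.41. Its lowest sgRNA had 68 reads in the top and 155 in the bottom quartile, and without it the mean was 0.05.

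Regulatory subunits hold the catalytic subunits inactive until cAMP binds. PRKAR1A, the subunit whose loss leaves PKA active (chromosome 17), gave the tightest set of sgRNAs of all 25 genes, at 0.03 ± 0.11 (SD over 5 sgRNAs, adjusted exact p = 0.959, interval −0.16 to 0.26). Its sgRNAs had 757, 919, 709, 281 and 343 reads in the top quartile, against 822, 1192, 893, 357 and 403 reads in the bottom quartile. All 5 phenotypes lay between −0.06 and 0.19, well within the NTC range. PRKAR2A, a type II subunit that anchoring proteins bind (chromosome 3), averaged −0.12 ± 0.22, and PRKAR2B, the type II subunit of fat and brain, averaged 0.06 ± 0.17. The 2 lowest sgRNAs of PRKAR2A, at −0.37 and −0.35, were also those with the fewest reads (173 and 136 in the top, 278 and 215 in the bottom quartile).

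PRKAR1B, the type I subunit of neurons (chromosome 7), had 2 start sites in the library, and neither departed from the controls. The site called P1, with the lower p, averaged 0.05 ± 0.36 (SD over 5 sgRNAs, exact p = 0.39). P2 averaged −0.02 ± 0.24 (SD over 5 sgRNAs, exact p = 0.935). Of the 6 sgRNAs with reads at P2, 3 were listed with the same position and the same counts under HEATR2 as well, so that they measure both genes at once. One of these 3 had 454 reads in the top and 533 in the bottom quartile of H17, and 1280 reads in the top and 1116 in the bottom quartile of H23. Its phenotype was 0.08 in H17 and −0.05 in H23, which was a repeat of 1 sgRNA in separate sorts that differed by less than the SD of the NTC sgRNAs in either. Another had 2102 reads in the top and 1788 in the bottom quartile of H23, a phenotype of −0.01 there, and 1 and 11 reads in H17, where it was not analysed.

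Each PDE4 gene has several promoters that give long and short enzyme forms. For PDE4A the library listed 2 start sites, beside 5 RefSeq windows, and for PDE4C 2 beside 4. For PDE4B it listed 1, beside 6 windows, and for PDE4D 1 beside 8. The sites were not matched to the windows, so that the promoters reached by the sgRNAs are not known. The phenotypes of the 4 genes ran from −0.03 to 0.19, with 3 positive means that became 1 when phenotypes were centred on all analysed sgRNAs, and the adjusted exact p from 0.66 to 0.977.

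PDE4A (chromosome 19) had the highest mean of the 25 genes at the site P1, where its 5 sgRNAs were all positive. The rank and the sign depended on the setting. With both start sites pooled PDE4A averaged −0.0090 (exact p = 0.393), and the highest gene was then CRTC1 at 0.17. With the median over sgRNAs the highest was PDE4B at 0.29, and without the strongest sgRNA it was PRKAR1B at 0.20. At the site P1 its sgRNAs had 1142, 311, 1178, 1163 and 1496 reads in the top quartile, against 877, 218, 723, 940 and 1234 reads in the bottom quartile. The mean phenotype was 0.19 ± 0.18 (SD over 5 sgRNAs, exact p = 0.0736, adjusted exact p = 0.66, interval −0.02 to 0.39), with single values of 0.13, 0.27, 0.46, 0.06 and 0.03. Each lay within the NTC range. The other site, P2, had 822, 1049, 1039, 1215 and 1052 reads in the top quartile, against 639, 1875, 873, 880 and 1087 reads in the bottom quartile. P2 averaged −0.21 ± 0.53 (SD over 5 sgRNAs, exact p = 0.587, interval −0.49 to 0.18), and 1 of its sgRNAs was at −1.08. That sgRNA was the lowest of all 139 and the one of H23 below the 1st percentile of the NTC sgRNAs, and without it the mean of P2 was 0.01. The site P1 stood for PDE4A because its p was lower, and the difference between the sites was not tested.

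PDE4D, linked to β-adrenergic receptors through arrestins (chromosome 5), averaged −0.03 ± 0.24 (SD over 5 sgRNAs, interval −0.27 to 0.20). Its sgRNAs included the one with the most reads of the group, 5476 in the top and 4867 in the bottom quartile, at −0.08. PDE4B, known from immune cells and brain (chromosome 1), averaged 0.03 ± 0.44, with 3 sgRNAs between 0.29 and 0.41 and 2 at −0.35 and −0.53. Its interval of −0.36 to 0.43 was the widest of the 4 genes. PDE4C averaged 0.03 ± 0.21 at the site P2 and −0.06 ± 0.29 at P1, where 4 sgRNAs passed the read minimum.

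CREB1 and its coactivators gave both the lowest gene of the group and one of the highest. CREB1 itself (chromosome 2) averaged 0.04 ± 0.17 (SD over 5 sgRNAs, adjusted exact p = 0.935, interval −0.16 to 0.24). Its sgRNAs, all within 61 bases, had 402, 1037, 1298, 2208 and 1346 reads in the top quartile, against 400, 858, 1006, 1618 and 1064 reads in the bottom quartile. One was at −0.24 and the other 4 lay between 0.03 and 0.20.

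CRTC1, the coactivator of neurons (chromosome 19), averaged 0.17 ± 0.40 (SD over 5 sgRNAs, exact p = 0.125, adjusted exact p = 0.75, interval −0.09 to 0.48). Its sgRNAs had 891, 1820, 1720, 1832 and 1120 reads in the top quartile, against 1055, 1404, 1121, 1266 and 644 reads in the bottom quartile. One was at −0.49 and the other 4 between 0.13 and 0.55. CRTC3 (chromosome 15), in H17, averaged −0.17 ± 0.49 (SD over 5 sgRNAs, exact p = 0.526), with 3 sgRNAs between −0.61 and −0.41 and 2 at 0.32 and 0.40.

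CRTC2, the coactivator best known from hormone-driven glucose production in liver (chromosome 1), was the lowest gene of the group by the mean. With the median over sgRNAs the lowest was CRTC3 at −0.41, beside −0.38 for CRTC2. The sgRNAs of CRTC2 had 961, 142, 1160, 505 and 50 reads in the top quartile of H17, against 1058, 222, 1947, 1092 and 81 reads in the bottom quartile. The phenotypes were 0.17, −0.33, −0.43, −0.80 and −0.38, and the mean was −0.36 ± 0.35 (SD over 5 sgRNAs, exact p = 0.0439, adjusted exact p = 0.589, shift −0.36 with an interval of −0.62 to −0.01). Of all genes of H17, 4.6% had a lower mean. All 5 sgRNAs lay within the NTC range, and 4.7% of the NTC sgRNAs lay below the strongest. CRTC2 did not pass the adjusted threshold, and its unadjusted p was 0.153 without the strongest sgRNA and 0.101 at a minimum of 100 reads. The strongest sgRNA was also read in H456, with 92 reads in the top and 117 in the bottom quartile, and there its phenotype was 0.42, with a counting SD of 0.20. The median analysed sgRNA of H456 had 693 reads in the top and 1187 in the bottom quartile. Where these few reads came from was not tested, and 0.42 lay within the NTC range of H456.

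In H17, member sgRNAs with few reads were mostly negative. Of the 9 member sgRNAs with fewer than 500 reads in both libraries together, 8 had a negative phenotype, and they included 2 sgRNAs each of CRTC2, PRKACG and PRKAR2A. Among all 3840 targeting sgRNAs of H17 in that read range the share was 48.2% and the median phenotype was 0.03. Their SD was 0.67, beside 0.28 at 2000 reads or more. The NTC sgRNAs in that range had a median of −0.10 and an SD of 0.73. The part of read number in the means of these genes was not tested.

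Neighbouring sgRNAs of one gene could differ widely. Positions in the files have no stated genome build, so that only distances are given here. On one strand, 16 pairs of member sgRNAs lay within 10 bases of each other and therefore shared part of their target. The median absolute difference of phenotype in these pairs was 0.25, beside 0.30 in the 260 other pairs of a site, and 0.24 beside 0.25 for all genes of H17 and H23 (7289 and 119618 pairs). In ADCY6, the sgRNAs 44, 48 and 51 bases from the first were at −0.21, 0.48 and −0.25. In CRTC3, 2 sgRNAs 10 bases apart were at −0.61 and 0.40, the largest difference among these pairs. In ADCY3, 2 sgRNAs 5 bases apart differed by 0.0053, the smallest. The sgRNAs of a gene were thus not all at separate sites, and those of ADCY7 lay within 37 bases.

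Other genes of the pathway gave a like picture. Of 46 genes in 7 lists, 0 had an adjusted exact p below 0.05, 22 were negative, and the median was 0.0093. At an unadjusted exact p below 0.05 there were 3 with a positive and 1 with a negative phenotype, beside the 4.07% and 4.05% of all genes given above. All 4 lay in H17, where 318 of 5915 genes passed this limit on the positive and 132 on the negative side. AKAP1, which anchors PKA at mitochondria, averaged 0.27 ± 0.19 (SD over 5 sgRNAs, exact p = 0.0144, adjusted exact p = 0.419) and was the highest of the 46. The other 13 anchoring proteins did not pass, and AKAP6, which anchors PKA in muscle and neurons, was the lowest of the 46 at −0.32 ± 0.87. One of its sgRNAs, with 398 reads in the top and 1805 in the bottom quartile, was at −1.87, and the other 4 lay between −0.05 and 0.13.

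Salt-inducible kinases phosphorylate the CRTC proteins and keep them out of the nucleus, and PKA inhibits them. SIK2 averaged 0.22 ± 0.12 (SD over 5 sgRNAs, exact p = 0.0252, adjusted exact p = 0.504) and SIK3 0.25 ± 0.18 (SD over 5 sgRNAs, exact p = 0.0258, adjusted exact p = 0.51). The sgRNAs of SIK2 had 1134, 1408, 1317, 1175 and 467 reads in the top quartile of H17, against 1137, 1389, 1603, 1272 and 498 reads in the bottom quartile. All 5 sgRNAs of each kinase were positive with centring on the NTC sgRNAs, but 4 of 5 of SIK2 with centring on all analysed sgRNAs and 4 of 5 of either with centring on olfactory receptor sgRNAs. SIK1 averaged 0.10 ± 0.14. PKIB, an inhibitor peptide of PKA, averaged −0.23 ± 0.09 (SD over 5 sgRNAs, exact p = 0.0486, adjusted exact p = 0.609), with all 5 sgRNAs between −0.36 and −0.15. None of the 12 other cAMP phosphodiesterases (phenotypes −0.16 to 0.10), the 2 EPAC exchange factors (−0.10 and −0.09), the 4 partners of CREB1 (−0.14 to 0.19) or the 7 Gα subunits (−0.06 to 0.19) passed even the unadjusted limit. Among the Gα subunits, GNAS, which activates adenylyl cyclase, averaged 0.13 ± 0.24, and GNAI1, GNAI2 and GNAI3, which inhibit it, averaged 0.02 ± 0.16, −0.06 ± 0.11 and 0.13 ± 0.20 (SD over 5 sgRNAs each).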

How the data were processed

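The authors aligned the reads to the start of the sgRNAs, cropped them to 38 bp and counted them with ScreenProcessing (version 0.1). Deposited values are raw counts of reads per sgRNA, with no molecular identifiers. Sample titles gave the quartile, although library names carry the initial of the other quartile. Top and bottom libraries held 23426498 to 50486627 reads.

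Each gene was assigned to the sublibrary with most of its sgRNAs by reads. An sgRNA was analysed with at least 10% of its reads there and at least 50 reads in the top or bottom library. Only sgRNAs with a count of 0 had 1 added, to both counts. At least 2 sgRNAs per start site were required. For genes with several sites the one with the lower p was taken, which favors low p-values. Ties in the exact Mann-Whitney test took midranks. With 1 library per quartile, edgeR (version 4.0.16, R 4.3.3) gave TMM factors only. Python 3.11.15 with numpy 2.4.6 was used, and the procedure was tested on simulated data. For positions of sgRNAs the build was not given in the sources used here, so distances alone were taken, and sgRNA sequences were not used. Members, lists and the naming rule (all 25 members, and pathway genes past the adjusted or unadjusted limit or at the extremes) were chosen with earlier results of these data known, and SIK1 and the Gα genes named were picked after their values were seen. Alternatives changed the read minimum, pseudocount, centring, gene value, start sites, depth, comparison set and call rule. The hit rule of the methods combines phenotype and p and admits less than 10% pseudogenes of 5 NTC sgRNAs. Its score was chosen here as the absolute phenotype, divided by the SD of pseudogene means, times −log10 of a normal-approximation Mann-Whitney p.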

Additional observations from a re-analysis of the deposited data

Results flagged for a closer look

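Member sgRNAs with at least 50 reads in a library outside the sublibrary of their gene were looked at again, because the gene values leave those reads out. PRKAR1B had 2 such sgRNAs at the start site P2, with 2102 and 1280 reads in the top and 1788 and 1116 reads in the bottom quartile of H23, at phenotypes of −0.01 and −0.05. Both are also listed under HEATR2. A CRTC2 sgRNA had 92 reads in the top and 117 in the bottom quartile of H456, at 0.42, whereas in H17 it was the lowest of its gene at −0.80. An ADCY8 sgRNA had 17 reads in the top and 61 in the bottom quartile of H17, at −1.53 with a counting SD of 0.40, against 0.16 in H23, its own sublibrary. Where the few reads of the CRTC2 and ADCY8 sgRNAs outside their own sublibraries came from was not tested.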

How the results depend on the processing

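No member and none of the 46 other pathway genes passed an adjusted p of 0.05 under any of 11 alternative settings or by the hit rule of the methods, and the lowest adjusted exact p of any member was 0.577 (CRTC2). The count of members at an unadjusted p below 0.05 was 1, and it was 0 at a minimum of 100 reads, with 10 added to every count, without the strongest sgRNA and with olfactory receptor sgRNAs as the comparison set. In those settings the p of CRTC2 was 0.101, 0.0501, 0.153 and 0.0635, and its phenotype ran from −0.54 to −0.24 over all settings. The median over members ran from −0.03, with olfactory receptor sgRNAs, to 0.02, with the 3 strongest sgRNAs. The number of negative members ran from 11 to 19. The sign of the mean held in all settings for 11 genes (ADCY3, ADCY4, ADCY5, ADCY9, PDE4D, PRKAR2A, PRKAR2B, CREB1 and the 3 CRTC genes) and changed in at least one for the other 14. Over all genes, 90 passed the adjusted threshold, but 50 with olfactory receptor sgRNAs and 22 without the strongest sgRNA. No paired analysis was possible because each quartile of a sublibrary had 1 library. Depth limits the sgRNAs with few reads most, such as one of CRTC2 with 50 and 81 reads in the top and bottom quartile.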
